A study of Mus musculus with 6 samples.

Results

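The UDP-glucuronosyltransferases described here are 10 mouse genes: Ugt2b5, Ugt2b34, Ugt2b35, Ugt2b36, Ugt2b37 and Ugt2b38, Ugt1a1, Ugt1a6a and Ugt1a7c, and Ugt2a3. They were chosen by name as members of 1 enzyme family, out of 23725 genes with a row in the deposited table. Earlier results of these data were known at that choice, so counts of members are a description. RNA was measured in enriched colonic epithelial cells of C57BL/6J mice in 2 groups of 3 libraries. The knockout group, labelled Nr3c1IEC-/-, lacks the glucocorticoid receptor gene Nr3c1 in the intestinal epithelium through Vil-Cre/ERT2, a recombinase that the villin promoter expresses and tamoxifen activates, and the other group was wild type. Mice of both groups had tamoxifen injected into the peritoneum on 5 days in a row, and the cells were collected on a Percoll gradient 7 days after the first injection. The labels give neither the deleted exon nor whether wild-type mice carried the transgene, so an effect of the recombinase and the loss of the receptor cannot be told apart. They also do not say whether a library came from 1 animal or a pool, so p-values measure only the spread between these libraries.

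UDP-glucuronosyltransferases sit in the membrane of the endoplasmic reticulum and join glucuronic acid, taken from UDP-glucuronate, to small lipophilic molecules, which become water-soluble and leave the cell through export pumps. The Ugt2b enzymes act on steroids, bile acids, fatty acids and drugs, and each Ugt2b gene is a separate copy in a cluster on chromosome 5. The Ugt1a genes lie on chromosome 1, and each has its own first exon joined to exons that all of them share. In liver and gut this conjugation clears bilirubin, hormones and compounds taken in with food.

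The label of 1 library went against its Nr3c1 level. Nr3c1 had 144.7, 123.1 and 174.7 normalized reads in the knockout libraries, against 1120, 967.1 and 196.7 in those labelled wild type (WT) replicates 1, 2 and 3. Normalized reads are counts per gene after division, by the authors, by the library's size factor. The library labelled WT replicate 3 thus lay close to the knockout libraries at this gene, although the groups did not overlap. The means were 147.5 ± 25.9 in knockout and 761 ± 495 in wild type (SD, n = 3 each), and a two-sided exact permutation test gave p = 0.1, the smallest that 3 against 3 libraries allow. In limma's fit across all genes the log2 change, knockout minus wild type, was -2.03 (SE 0.60, adjusted p = 0.0372), and -2.82 (adjusted p = 0.000731) without that library. Calls of members that end without it, and list counts that then move by more than 1.5 times, are given with both values. Leaving out any one of the other 5 libraries ended the call of Nr3c1 (adjusted p between 0.0631 and 0.125).

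Library depth was 10089313 to 12030844 recovered reads. The marker counts that follow stand beside 15.4% lowered and 15.0% raised of all 12837 tested genes, at an adjusted p under 0.05. Among 12 epithelial markers 1 was lowered and 2 were raised (0 and 1 without wild type replicate 1 or 2, 0 and 2 without knockout replicate 3), their summed level was 354465 to 397778 normalized reads in knockout and 333510 to 378656 in wild type, and Epcam, an adhesion protein of epithelial cells, had a log2 change of -0.07 (adjusted p = 0.761). Krt20 (log2 change 0.99), Vil1 (0.59) and Cdx2 (-0.65) were the epithelial markers past the threshold. Of 15 markers of mature colonocytes 6 were lowered and 3 raised, with a summed level of 92523 to 160664 in knockout and 218535 to 260966 in wild type. Car1, the largest marker of that sum in wild type, had 39006 ± 24048 in knockout and 143867 ± 31220 in wild type. The smallest adjusted p were those of Slc5a8 (-1.61), Fabp2 (-2.40) and Cyp2c55 (-6.41). The 3 raised were Krt20 (0.99), Ceacam20 (0.95) and Ms4a8a (0.93). Car1, Ceacam20 and Ms4a8a are named after their values were seen. Of 23 tested immune and stromal markers 12 were raised, led by S100a8 (6.04), S100a9 (5.61) and Fcgr3 (3.48), and 1, Kit, named after its value was seen, was lowered (-2.38). The 36 immune and stromal markers with a row summed to 4575 to 11379 normalized reads in knockout and 1607 to 2753 in wild type, and none was at 0 in every library. Of 9 hepatocyte markers 4 were tested, and 1, Cyp2e1, was raised (1.31), while Apob (0.54) and Alb (1.33) did not pass. In bulk RNA, fewer cells of a type and less RNA per cell cannot be told apart.

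The promoter windows of the Ugt2b genes are shown first because they share letters that the other members lack. RefSeq's promoter table for GRCm38.p6 held all 10 members, and the 250 bases before each gene's start were searched on both strands, as were those of 32851 windows in all. The letters GTTA and TTAAC with 4 bases of any kind between them were found in the windows of all 6 Ugt2b members and in none of the other 4, against 0.170% of all windows. This motif was added to the search after the sequences had been read, so the share over all windows is a description and not a test. The last 120 bases before the gene start are printed on the gene's strand, 5′ to 3′, with the match in capitals, and Ugt2b1, a Ugt2b gene that is not among the 10, is added for its match. Elsewhere in the family Ugt3a1, listed at 0 in all 6 libraries, also has a match, GTTAAAAATTAAC, which begins 130 bases before the gene start and so lies mostly outside the printed length.
Ugt2b5, chr5:87140341-87140460, minus strand: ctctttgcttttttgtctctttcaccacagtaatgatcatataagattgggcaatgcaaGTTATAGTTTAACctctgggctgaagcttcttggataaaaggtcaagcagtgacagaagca
Ugt2b37, chr5:87254789-87254908, minus strand: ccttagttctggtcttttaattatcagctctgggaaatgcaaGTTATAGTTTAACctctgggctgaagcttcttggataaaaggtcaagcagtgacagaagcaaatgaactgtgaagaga
Ugt2b38, chr5:87424204-87424323, minus strand: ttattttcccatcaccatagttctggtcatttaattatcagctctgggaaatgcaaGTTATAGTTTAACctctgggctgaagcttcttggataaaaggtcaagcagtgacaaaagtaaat
Ugt2b36, chr5:87092556-87092675, minus strand: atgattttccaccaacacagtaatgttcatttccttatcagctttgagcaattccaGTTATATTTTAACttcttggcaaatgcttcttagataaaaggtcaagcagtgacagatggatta
Ugt2b35, chr5:87000740-87000859, plus strand: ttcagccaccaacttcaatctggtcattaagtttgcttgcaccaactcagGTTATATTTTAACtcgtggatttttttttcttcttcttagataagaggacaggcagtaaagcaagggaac
Ugt2b34, chr5:86906938-86907057, minus strand: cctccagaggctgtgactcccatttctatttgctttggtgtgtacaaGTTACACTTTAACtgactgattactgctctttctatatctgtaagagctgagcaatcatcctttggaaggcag
Ugt2b1, chr5:86926504-86926623, minus strand: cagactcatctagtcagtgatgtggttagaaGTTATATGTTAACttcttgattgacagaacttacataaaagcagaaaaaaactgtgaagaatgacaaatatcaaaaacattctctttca

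In Ugt2b5, Ugt2b37 and Ugt2b38 the match reads GTTATAGTTTAAC, in Ugt2b35 and Ugt2b36 GTTATATTTTAAC, in Ugt2b34 GTTACACTTTAAC and in Ugt2b1 GTTATATGTTAAC. The matches of the 6 members begin 61 bases before the gene start in Ugt2b5, 64 in Ugt2b36 and Ugt2b38, 70 in Ugt2b35, 73 in Ugt2b34 and 78 in Ugt2b37. Around the match, Ugt2b5, Ugt2b37 and Ugt2b38 have an identical run of 62 bases, found in these 3 windows alone among the 32851. That run also holds AGGTCA, a site of nuclear receptors, which was in the windows of 6 members (Ugt2b5, Ugt2b35, Ugt2b36, Ugt2b37, Ugt2b38 and Ugt1a7c) and in 14.0% of all windows. The windows of Ugt2b37 and Ugt2b38 were 84.8% identical, those of Ugt2b5 and Ugt2b38 81.5%, and those of Ugt2b5 and Ugt2b34 48.9%.

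The full element that the glucocorticoid receptor binds, AGAACA and TGTTCT with 3 bases of any kind between them, was in no member's window and in 0.00913% of all windows, and its first part AGAACA alone was in 3 members (Ugt1a6a, Ugt1a7c and Ugt2b34) and 16.1% of windows. GCGTG, the core that the aryl hydrocarbon receptor binds, and TATAAA, the TATA box, were in no member and in 28.2% and 12.4% of windows. A match is a description of letters, and windows without one say nothing about the factor.

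All 10 members passed the filter on low values, which asked for at least 10 normalized reads in at least 3 of the 6 libraries. Ugt2b36, Ugt2b37 and Ugt2b38 reached 10 in no knockout library and passed through wild type alone, so that they had to differ, and the counts and the median that follow include them as a description. Of the 10, 9 were lowered in knockout and 0 raised, at an adjusted p under 0.05 in limma, against 15.4% of all 12837 tested genes lowered and 15.0% raised. Without the library labelled WT replicate 3, 7 of the 10 were lowered, all but Ugt2b34, Ugt2b35 and Ugt2a3. In all 10 the 3 knockout libraries lay below the 3 wild-type libraries, as they did in 25.5% of all tested genes. The median log2 change of the members was -3.13, beside 0.01 over all tested genes. The changes spanned a wide range within the family, and Ugt2b5, Ugt2b36, Ugt2b37 and Ugt2b38 had at most 12.4 normalized reads in any knockout library while Ugt2b34 had at least 1750.

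**Figure D1:**
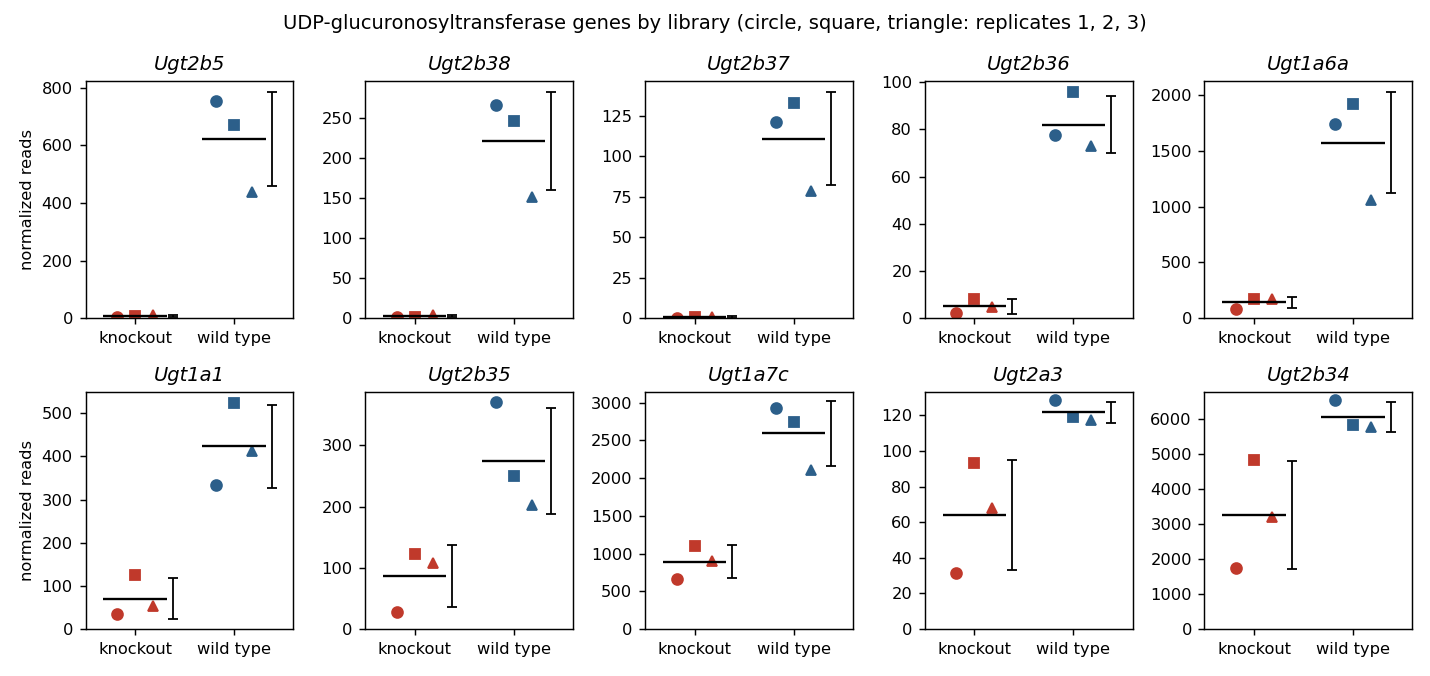
Each panel shows the normalized reads of 1 gene in the 3 knockout libraries (left, red) and the 3 wild-type libraries (right, blue); horizontal lines are means, error bars are SD, and each axis starts at 0 with its own scale. The groups do not overlap in any of the 10 panels, and Ugt2b5, Ugt2b38 and Ugt2b37 lie near 0 in all 3 knockout libraries.

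Ugt2b5 (Entrez 22238, GRCm38 chromosome 5, 87124946 to 87140340), a major Ugt2b enzyme of mouse liver, had 3.1, 7.2 and 12.4 normalized reads in knockout, against 752.5, 670.8 and 438.1 in wild type. Every wild-type library was at least 35.3 times as high as the highest knockout library. The means of 7.60 ± 4.64 in knockout and 620 ± 163 in wild type (SD, n = 3 each) differed 81.6-fold, lower in knockout (log2 change -6.30, SE 0.43, adjusted p = 0.000266). Log2 changes are on the log2(value + 1) scale, which understates those of genes with few reads.

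Ugt2b38 (Entrez 100559, chromosome 5, 87409939 to 87424203) had 2.1, 1.0 and 3.8 normalized reads in knockout and 265.3, 245.4 and 151.2 in wild type. It was 95.2-fold lower in knockout, at 2.32 ± 1.40 against 221 ± 61.0 in wild type (log2 change -6.11, SE 0.39, adjusted p = 0.000225). Ugt2b37 (Entrez 112417, chromosome 5, 87240492 to 87254788) had 0, 1.0 and 1.0 normalized reads in knockout and 121.0, 133.0 and 78.3 in wild type. These are 2 reads over the knockout libraries and 336 over the wild-type libraries, a 163-fold lower level once depth is allowed for, with an exact 95% interval of 44.7 to 1350 that covers counting error only (log2 change -6.10, SE 0.42, adjusted p = 0.000266). By log2 change Ugt2b5, Ugt2b38 and Ugt2b37 stood at positions 2, 3 and 4 from the most lowered of all 12837 tested genes. Their order depends on the 1 added before taking log2. With 0.5 in its place Ugt2b37 was at -6.71 and Ugt2b5 at -6.40, and with 5 they were at -4.33 and -5.67. Ugt2b5, Ugt2b38 and Ugt2b37 are the 3 genes with the identical 62-base run before the gene start, and their transcripts are 91.6 to 93.9% identical. Whether that run bears on their levels was not tested.

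Ugt2b36 (Entrez 231396, chromosome 5, 87065927 to 87092555) had 2.1, 8.3 and 4.8 normalized reads in knockout and 77.5, 95.8 and 72.9 in wild type. It fell 16.3-fold, to 5.05 ± 3.10 in knockout against 82.1 ± 12.2 in wild type (log2 change -3.91, SE 0.42, adjusted p = 0.00117). In Ugt2b35 (Entrez 243085, chromosome 5, 87000860 to 87013274) the values were 28.3, 123.1 and 107.9 in knockout and 370.4, 249.4 and 202.2 in wild type. The lowest knockout library was replicate 1, and the means of 86.4 ± 50.9 in knockout and 274 ± 86.8 in wild type differed 3.17-fold, lower in knockout (log2 change -1.86, SE 0.53, adjusted p = 0.0337). That call ended when any one wild-type library was left out (adjusted p = 0.115, 0.0880 and 0.0510 without replicates 1, 2 and 3).

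Ugt2b34 (Entrez 100727, chromosome 5, 86889770 to 86906937) had the most normalized reads of the members, with 1750, 4829 and 3205 normalized reads in knockout and 6538, 5839 and 5768 in wild type. The knockout libraries lay wide apart, and the highest of them was close to the lowest wild-type library. Its means were 3261 ± 1540 in knockout and 6048 ± 426 in wild type, 1.85-fold lower in knockout (log2 change -1.01, SE 0.32, 95% interval -1.76 to -0.26), at the edge of the threshold (adjusted p = 0.0493). Without the library labelled WT replicate 3 the change was -1.04 and no longer passed (adjusted p = 0.0905), nor did it pass without wild type replicate 1 (0.139) or 2 (0.118), without knockout replicate 3 (0.0951), or in edgeR's quasi-likelihood test on the recovered reads (adjusted p = 0.0691).

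Ugt1a6a (Entrez 94284, chromosome 1, 88134809 to 88220002), whose enzyme conjugates small planar phenols, had 83.9, 171.8 and 168.0 normalized reads in knockout and 1739, 1925 and 1062 in wild type. The mean was 11.2-fold lower in knockout, at 141 ± 49.7 against 1575 ± 454 in wild type (log2 change -3.50, SE 0.32, adjusted p = 0.000707). Ugt1a1 (Entrez 394436, chromosome 1, 88211959 to 88220002), the bilirubin-conjugating enzyme, had 33.5, 124.2 and 53.5 in knockout and 334.3, 525.1 and 411.6 in wild type. It was 6.02-fold lower in knockout, at 70.4 ± 47.6 against 424 ± 96.0 in wild type (log2 change -2.76, SE 0.43, adjusted p = 0.00427). The groups of both genes lay far apart, with the lowest wild-type library 6.18 times the highest knockout library in Ugt1a6a and 2.69 times in Ugt1a1.

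Ugt1a7c (Entrez 394432, chromosome 1, 88095001 to 88220002), a Ugt1a enzyme of the digestive tract, had 661.5, 1099 and 905.0 normalized reads in knockout and 2928, 2751 and 2106 in wild type. It was the Ugt1a member with the smallest change, 2.92-fold lower in knockout (888 ± 219 against 2595 ± 432 in wild type; log2 change -1.56, SE 0.21, adjusted p = 0.00233). Its 95% interval of -2.04 to -1.09 did not reach that of Ugt1a6a, -4.25 to -2.75, although the difference between these genes was not tested.

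Ugt2a3 (Entrez 72094, chromosome 5, 87324972 to 87337195), whose human counterpart conjugates bile acids, lies within the Ugt2b cluster, between Ugt2b37 and Ugt2b38. It had 31.4, 93.1 and 67.8 normalized reads in knockout and 128.4, 119.3 and 117.5 in wild type. The means of 64.1 ± 31.0 in knockout and 122 ± 5.87 in wild type and the log2 change of -1.04 (SE 0.36, 95% interval -1.89 to -0.20) did not pass the threshold (adjusted p = 0.0626). The members on either side of it were among the 3 with the most negative log2 changes.

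**Figure D2:**
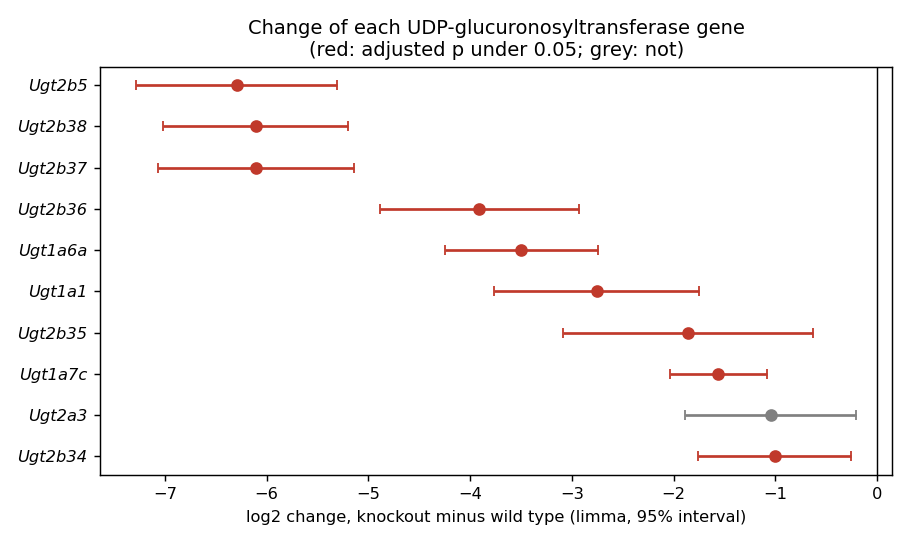
Points are the log2 change of each gene, knockout minus wild type, from limma on log2(normalized reads + 1), and bars are 95% intervals. The clustered points at the far left belong to Ugt2b5, Ugt2b38 and Ugt2b37, and the change nearest to 0 is that of Ugt2b34, at -1.01; Ugt2a3 (grey) did not pass the threshold.

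The order of the libraries within each group was much alike from member to member. Knockout replicate 1 was the lowest knockout library in 9 of the 10 members, the exception being Ugt2b38, and knockout replicate 2 was the highest in 8. The library labelled WT replicate 3 was the lowest wild-type library in 9, the exception being Ugt1a1. The mean log2 level of the immune and stromal markers was 5.85, 4.68 and 5.40 in knockout replicates 1, 2 and 3 and 3.54, 3.84 and 4.41 in wild type replicates 1, 2 and 3. Within each group, the library with the highest marker level was thus the one in which most members were lowest. How often these libraries were lowest over all tested genes was not counted. Ugt2b36, Ugt2b37 and Ugt2b38 had at most 8 reads in any knockout library, so their order there is uncertain.

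That marker level followed the genotype closely, with a correlation of 0.851 over the 6 libraries. With it as a covariate 3 members stayed lowered, namely Ugt2b38 (log2 change -6.18, adjusted p = 0.0279), Ugt2b5 (-5.24, adjusted p = 0.0318) and Ugt2b37 (-5.00, adjusted p = 0.0318). Ugt2b37 and Ugt2b38 passed the filter through wild type alone, and Ugt2b5 had at most 12.4 normalized reads in knockout. That these 3 stayed lowered is therefore a description. Ugt2b36 (-2.66), Ugt1a6a (-2.34), Ugt1a1 (-1.45) and Ugt1a7c (-0.75) kept their direction without passing, with adjusted p between 0.0608 and 0.434. Ugt2b34 (0.15), Ugt2a3 (0.13) and Ugt2b35 (0.055) turned slightly positive. In the same fit 35 of all tested genes were lowered and 27 raised, against 1979 and 1931 without the covariate. The part of other cells in these results was not tested.

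The sum over a cluster's members does not depend on how reads were split among the genes in that sum. It does depend on whether and where reads shared with genes outside it were counted. For the Ugt1a sum, such genes include Ugt1a2, Ugt1a6b, Ugt1a8 and Ugt1a9, which carry the same shared exons. The 6 Ugt2b members summed to 1785, 4970 and 3335 normalized reads in knockout and 8125, 7233 and 6711 in wild type, a 2.19-fold lower mean in knockout (3363 ± 1592 against 7356 ± 715 in wild type). Ugt2b34 made up 96.1 to 98.0% of that sum in knockout and 80.5 to 86.0% in wild type. Without Ugt2b34 the other 5 summed to 102 ± 57.8 in knockout and 1308 ± 331 in wild type, 12.8-fold lower. The 3 Ugt1a members summed to 778.9, 1395 and 1127 in knockout and 5001, 5201 and 3580 in wild type, 4.18-fold lower in knockout (1100 ± 309 against 4594 ± 884 in wild type). Ugt1a7c made up 78.8 to 84.9% of it in knockout and 52.9 to 58.8% in wild type, and without it the sum was 9.45-fold lower in knockout (212 ± 89.7 against 1999 ± 493 in wild type).

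**Figure D3:**
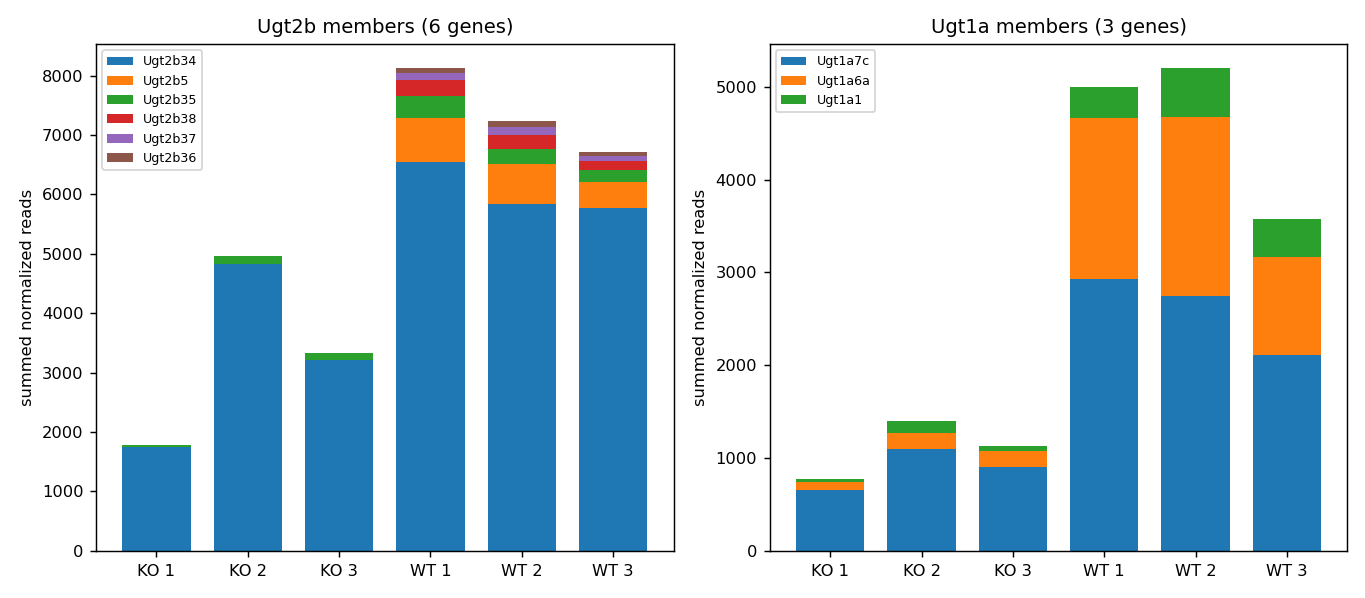
Stacked bars give the normalized reads of the 6 Ugt2b members (left) and the 3 Ugt1a members (right) in each library, with the knockout (KO) libraries left of the wild-type (WT) libraries; each colour is 1 gene. In knockout, Ugt2b34 makes up 96.1 to 98.0% of the Ugt2b bars and Ugt1a7c 78.8 to 84.9% of the Ugt1a bars.

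Levels between genes were compared as normalized reads per kilobase of transcript. In knockout the order of these levels was Ugt2b34 (1069 ± 505), Ugt1a7c (275 ± 67.8), Ugt1a6a (61.5 ± 21.6), Ugt1a1 (31.7 ± 21.4), Ugt2a3 (30.3 ± 14.6), Ugt2b35 (25.7 ± 15.2), Ugt2b5 (4.09 ± 2.50), Ugt2b36 (2.67 ± 1.64), Ugt2b38 (1.23 ± 0.743) and Ugt2b37 (0.350 ± 0.304). Wild-type levels per kilobase were 1982 ± 140 for Ugt2b34, 803 ± 134 for Ugt1a7c, 686 ± 198 for Ugt1a6a, 334 ± 87.8 for Ugt2b5, 191 ± 43.1 for Ugt1a1, 117 ± 32.3 for Ugt2b38, 81.6 ± 25.8 for Ugt2b35, 58.5 ± 15.2 for Ugt2b37, 57.5 ± 2.77 for Ugt2a3 and 43.5 ± 6.44 for Ugt2b36. Ugt2b34 stood apart at the top in both groups, by more than the SDs. In knockout Ugt1a1, Ugt2a3 and Ugt2b35 lay within each other's SDs, as did Ugt2b5 and Ugt2b36, and in wild type so did Ugt1a7c and Ugt1a6a, and Ugt2b37 and Ugt2a3. Ugt2b5 was among the lowest 4 in knockout and the fourth from the top in wild type.

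These levels depend on how reads common to several genes were counted, which is not given in the sources used here. Of the 50-base windows in 1 transcript per gene, 80.6% in Ugt1a6a, 58.2% in Ugt1a1 and 40.9% in Ugt1a7c occur in another gene of the family. All 9 Ugt1a transcripts share a run of 1313 bases, yet Ugt1a10 is listed at 0 in all 6 libraries, so reads of the shared exons were not added to every Ugt1a gene. Per kilobase of windows found in no other family member, Ugt1a6a stood at 324 in knockout and 3613 in wild type, and Ugt2b34 at 1109 in knockout and 2057 in wild type. The windows left out for Ugt1a6a include those it shares with Ugt1a6b, and the order of Ugt1a6a and Ugt2b34 depends on whether reads of these were counted. Among the Ugt2b members the windows found elsewhere in the family were 41.7% in Ugt2b5, 37.4% in Ugt2b38, 18.3% in Ugt2b37, 2.07% in Ugt2b34, 0.326% in Ugt2b36 and 0 in Ugt2b35, and in Ugt2a3 they were 3.77%. The split of reads between Ugt2b5, Ugt2b37 and Ugt2b38, whose transcripts are 91.6 to 93.9% identical, is therefore uncertain, while all 3 were low in every knockout library. Ugt2b36 was 84.2 to 85.2% identical to them, and Ugt2b34 45.9 to 46.9%.

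**Figure D4:**
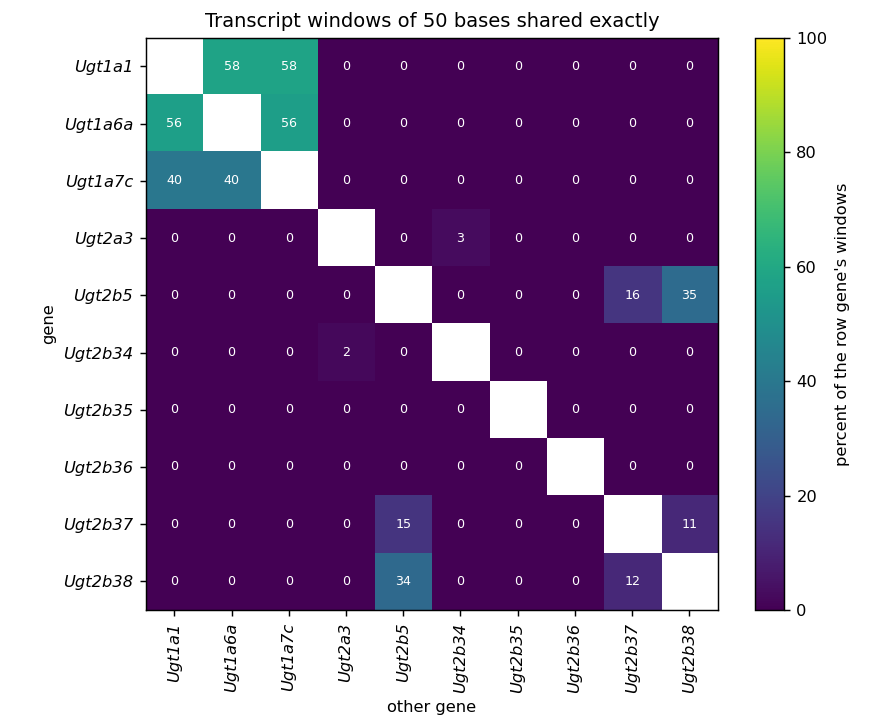
Each cell gives the percent of the 50-base windows in the row gene's transcript that occur exactly in the column gene's transcript, on a colour scale of 0 to 100. Sharing is found among the 3 Ugt1a genes and among Ugt2b5, Ugt2b37 and Ugt2b38, and is at most a few percent for every other pair.

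Among the 12 other genes of the family that were looked for, 10 had a row and 2, Ugt1a2 and Ugt8a, passed the filter. Both were lowered, and Ugt8a passed through wild type alone, so its call could go in 1 direction only. Ugt1a2 had 11.5, 24.8 and 17.2 normalized reads in knockout and 254.7, 260.1 and 134.8 in wild type, 12.1-fold lower (log2 change -3.53, adjusted p = 0.000919). Ugt8a, which adds galactose to ceramide rather than glucuronic acid to a drug or hormone, had 2.1, 5.2 and 1.0 in knockout and 54.1, 38.1 and 34.6 in wild type, 15.4-fold lower (log2 change -3.67, adjusted p = 0.00235). Ugt1a9 was low in both groups (5.66 ± 3.09 in knockout and 12.2 ± 3.27 in wild type), as was Ugt2b1 (1.36 ± 0.618 in knockout and 1.34 ± 0.681 in wild type), whose promoter window also holds the match printed above. Read counts of Ugt1a6b and Ugt1a8 were not analysed here.

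Of 13 tested genes listed around UDP-glucuronate supply, not all of which make or carry it, 3 were lowered, 2 raised and 8 not called. These shares are near the 15.4% and 15.0% over all tested genes, and the median log2 change was -0.08. Without wild type replicate 1 the counts were 2 and 1, and without wild type replicate 2 they were 3 and 1. Ugdh, whose enzyme oxidizes UDP-glucose to UDP-glucuronate, had 1391, 3308 and 2480 normalized reads in knockout and 10829, 10227 and 7919 in wild type. The groups lay well apart, and Ugdh was 4.04-fold lower in knockout (2393 ± 961 against 9658 ± 1536 in wild type; log2 change -2.09, SE 0.30, adjusted p = 0.00315). Entpd5, which breaks down UDP in the endoplasmic reticulum, was 2070 ± 701 in knockout and 4963 ± 598 in wild type (log2 change -1.31, adjusted p = 0.00789), and Slc35d1, which carries UDP-glucuronate into that compartment, was 408 ± 32.4 in knockout and 715 ± 160 in wild type (log2 change -0.79, adjusted p = 0.0137). Slc35b1, a nucleotide carrier of the same membrane, was raised, at 1361 ± 39.4 in knockout and 669 ± 36.6 in wild type (log2 change 1.02, adjusted p = 0.000728). So was the hexokinase gene Hk2, named after its values were seen (6792 ± 2648 in knockout against 2505 ± 517 in wild type; log2 change 1.37, adjusted p = 0.0142). Ugp2, whose enzyme makes UDP-glucose, had 2415 ± 541 in knockout and 2549 ± 153 in wild type (log2 change -0.10, 95% interval -0.48 to 0.28, adjusted p = 0.662).

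Of 8 genes of pumps that can carry glucuronides, 2 were lowered and 1 raised, against 15.4% and 15.0% of all tested genes, and so few genes do not set the list apart. Abcc4, a pump of the ABC family, was raised 3.78-fold, with 338.6, 335.2 and 286.4 normalized reads in knockout and 109.3, 66.5 and 78.3 in wild type (log2 change 1.93, adjusted p = 0.00106). Abcc3, a basolateral pump of glucuronides, was 4414 ± 506 in knockout and 6112 ± 350 in wild type (log2 change -0.47, adjusted p = 0.0257), and Abcc6 was 24.7 ± 15.5 in knockout and 74.1 ± 12.1 in wild type (log2 change -1.80, adjusted p = 0.0395). With the library labelled WT replicate 3, or wild type replicate 1 or 2, or knockout replicate 3 left out, 0 of the 8 were lowered; without knockout replicate 1, 2 were raised.

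Gusb, the lysosomal enzyme that removes glucuronic acid again, was raised 2.35-fold. It had 819.8, 775.0 and 723.6 normalized reads in knockout and 299.3, 354.0 and 335.1 in wild type, with a wide gap between the groups (log2 change 1.23, SE 0.11, adjusted p = 0.000708). Abhd10, which cleaves acyl glucuronides, did not pass (log2 change 0.18, adjusted p = 0.526), and Kl was under the filter.

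Of 23 tested genes of transcription factors and partners that regulate Ugt genes, 10 were lowered, the targeted gene Nr3c1 among them, and 1 was raised. Over all tested genes 15.4% were lowered and 15.0% raised. The median log2 change of the 23 was -0.42, beside 0.01 over all tested genes. Ppara, a nuclear receptor for fatty acids, had 40.9, 78.6 and 66.8 normalized reads in knockout and 558.3, 568.1 and 402.5 in wild type (8.20-fold lower; log2 change -3.05, adjusted p = 0.000604). Nr5a2 was 230 ± 59.5 in knockout and 737 ± 183 in wild type (log2 change -1.68, adjusted p = 0.00305), and Hnf4g 236 ± 57.1 in knockout and 423 ± 47.2 in wild type (log2 change -0.86, adjusted p = 0.0147). Both encode nuclear receptors of the gut epithelium. Keap1, which holds the stress factor NRF2 in check, was raised (log2 change 0.42, adjusted p = 0.0319) and is named after its value was seen. It did not pass without knockout replicate 1 or 2 or without any one wild-type library. Nfe2l2, the gene of NRF2 itself and likewise named after its value was seen, was lowered. Its levels were 1478 ± 301 in knockout and 2531 ± 524 in wild type (log2 change -0.77, adjusted p = 0.0234). Without wild type replicate 1 the lowered count was 2, without wild type replicate 2 it was 3, and without the library labelled WT replicate 3 it was 11.

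Known target genes of xenobiotic and stress sensors were counted by sensor. These counts stand beside 15.4% lowered and 15.0% raised over all tested genes. Of 8 tested targets of PXR and CAR, receptors that sense drugs and bile acids, 5 were lowered and 1 raised: Cyp2c65 (log2 change -3.20, adjusted p = 0.000524), Aldh1a1 (-1.32, adjusted p = 0.00119) and Cyp2c55 (-6.41, adjusted p = 0.00158) fell, and Gsta1, named after its value was seen, rose (1.82, adjusted p = 0.00725). With any one wild-type library left out, 3 of them were lowered. Cyp3a11, Cyp3a25, Cyp3a44 and Cyp2b10, also listed, were under the filter. The genes of PXR and CAR themselves, Nr1i2 (-0.37, adjusted p = 0.0778) and Nr1i3 (0.12, adjusted p = 0.686), did not pass. All of these are named after their values were seen. Of 10 tested targets of NRF2, 6 were raised and 1 lowered. Hmox1, the heme-degrading enzyme, stood at 259 ± 23.7 in knockout and 65.1 ± 9.04 in wild type (log2 change 1.98, adjusted p = 0.000562), with Gsr (0.82, adjusted p = 0.00570) and Slc7a11 (1.16, adjusted p = 0.0121) also raised. Nqo1, a target of both NRF2 and the aryl hydrocarbon receptor, fell (-0.68, adjusted p = 0.0181), a call that ended without wild type replicate 1 or 2 or knockout replicate 3. The other tested target of the aryl hydrocarbon receptor, Tiparp, did not pass (0.36, adjusted p = 0.191), and Cyp1a1 and Cyp1a2 are listed at 0 in all 6 libraries.

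**Figure D5:**
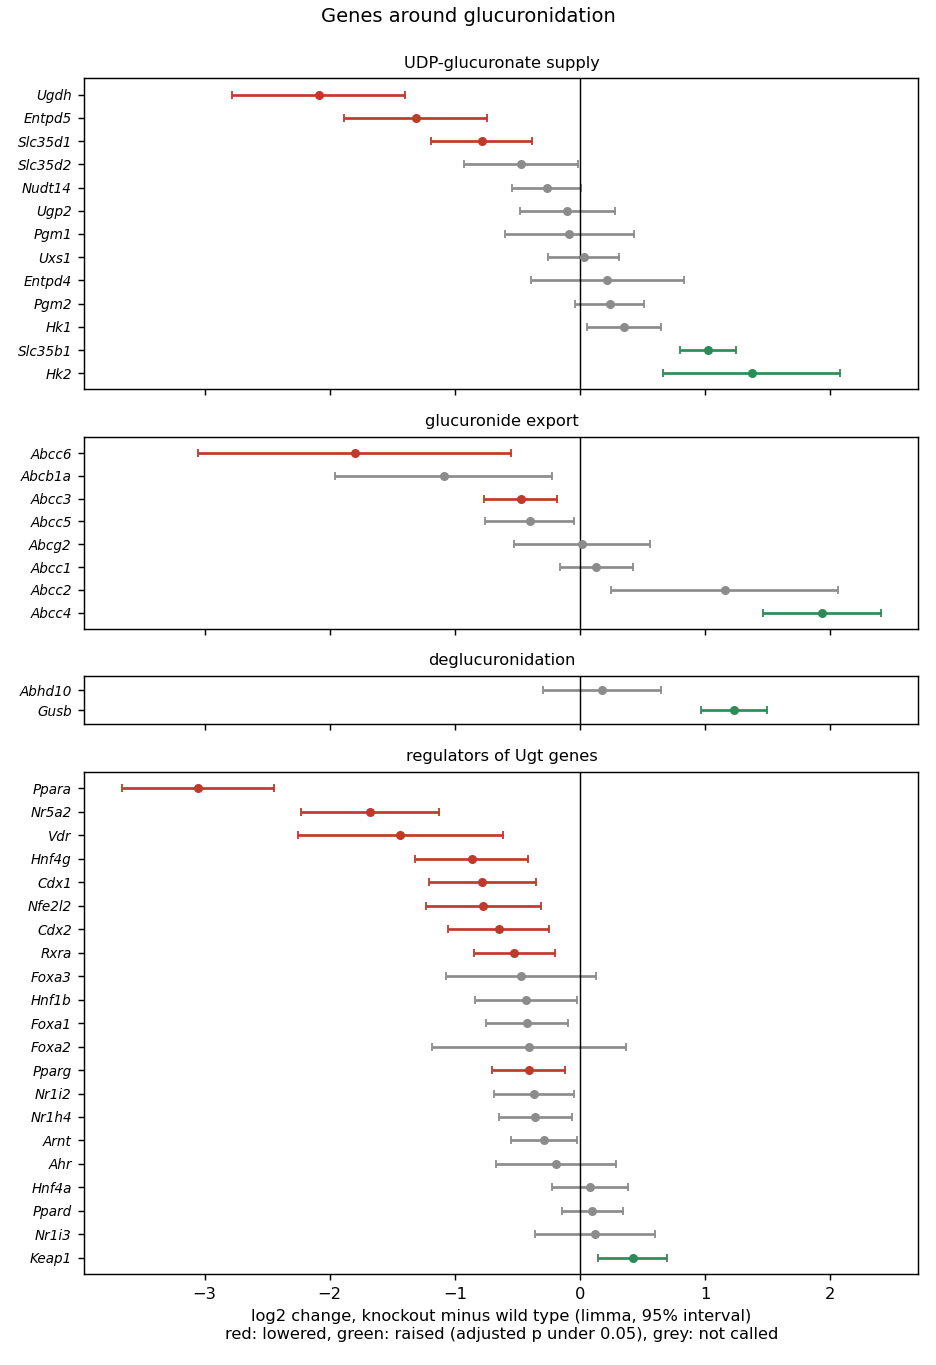
Points are log2 changes, knockout minus wild type, from limma with 95% intervals. They are for tested genes listed around UDP-glucuronate supply, glucuronide export, removal of glucuronic acid and regulation of Ugt genes (Nr3c1 and 1 other gene left out). Red points are lowered, green raised and grey not past the threshold; Ppara (-3.05) and Ugdh (-2.09) fell most, and Abcc4 (1.93) rose most.

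Position on the chromosome was looked at through the 3 nearest tested genes outside the family on each side of each cluster. Beside the Ugt2 cluster, Sult1d1, a sulfotransferase gene 63779 bp away, was 4.68-fold lower in knockout (968 ± 550 against 4529 ± 609 in wild type; log2 change -2.38, adjusted p = 0.00449). Its nearer neighbour Sult1b1, another sulfotransferase gene 22456 bp away, had 2259 ± 908 in knockout and 1974 ± 373 in wild type (log2 change 0.14, 95% interval -0.51 to 0.78, adjusted p = 0.730). Ythdc1, Uba6, Cenpc1 and Jchain did not pass either. Beside the Ugt1a cluster, Usp40 was lowered, with 162 ± 20.6 in knockout and 251 ± 18.8 in wild type (log2 change -0.63, adjusted p = 0.0163), and Arl4c, 478223 bp away, was raised (log2 change 1.34, adjusted p = 0.0309). Arl4c passed the filter through knockout alone, so its call could go in 1 direction only. Mroh2a, 6989 bp from the cluster, Hjurp, Dgkd and Atg16l1 did not pass. In all, 2 of the 12 neighbours were lowered and 1 was raised, close to the 15.4% and 15.0% over all tested genes.

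Of genes outside the family with a mean of at least 50, those whose log2 values followed Ugt2b5 most closely over the 6 libraries were Egr2, Fam107b and Arhgap20, each with a Pearson correlation of 0.999. Arhgap20 fell nearly as far as Ugt2b5, to 3.1, 8.3 and 9.5 normalized reads in knockout against 538.1, 433.2 and 307.8 in wild type (log2 change -5.81), while Egr2 (-2.03) and Fam107b (-1.45) changed less. These correlations are descriptive, since the 6 libraries fall into the 2 groups.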

How the data were processed

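Non-stranded TruSeq mRNA libraries of 3 knockout and 3 wild-type samples were analysed. The submitters' processing notes name FastQC, TopHat, DESeq2 and mm10; the counter and its annotation are not given there. The deposited signal is a count per gene after division, by the authors, by the library's size factor, and 100% of the values came to whole reads within 0.001. Entrez numbers matched RefSeq symbols of GRCm38.p6, the assembly behind mm10, in 23666 of 23725 rows. limma 3.58.1 (R 4.3.3, intensity-dependent prior) tested log2(value + 1) for the 12837 genes that reached 10 in 3 or more of the 6 libraries, with Benjamini-Hochberg adjustment over all of them and a threshold of 0.05; every adjusted p is from this fit unless another tool is named. A gene is called lowered or raised past that threshold. Transcript identity and shared windows used 1 GENCODE transcript per gene (Biopython 1.88); protein sequences were not used here. Members, lists, alternatives and the naming rule were chosen with earlier results of these data known. The rule named all members, Nr3c1, up to 3 genes per list with the smallest adjusted p, the clusters' neighbours and the genes most like Ugt2b5. Alternatives were other pseudocounts, filters and scaling, a marker covariate, edgeR 4.0.16 with the authors' size factors, DESeq2 1.42.0, and each library left out. One gene that the lists hold is not reported here. Replicate numbers are in accession order and pair nothing. No replicate pair agreed within sampling noise (chi-square per degree of freedom 15.0 to 57.5). Counts from near-identical paralogs, overlapping genes or antisense genes cannot be separated with certainty.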

Additional observations from a re-analysis of the deposited data

How the results depend on the processing

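Ugt2b5, Ugt2b37 and Ugt2b38 stayed lowered under all 14 alternatives, and Ugt1a1, Ugt1a6a, Ugt1a7c and Ugt2b36 under 13, the exception being the immune and stromal marker covariate. Ugt2b36, Ugt2b37 and Ugt2b38 passed the reported filter through wild type alone, so for them this is a description. Under that covariate 35 genes were lowered and 27 raised of all tested, 3 members were lowered, 1 pathway or regulator gene was lowered and 0 raised (14 and 5 in the reported fit), Nr3c1 was at -0.74 (adjusted p = 0.871), and Ugt2a3 (0.13), Ugt2b34 (0.15) and Ugt2b35 (0.055) turned positive; the covariate correlates with genotype at 0.851. Members lowered numbered 8 with no filter, with a filter at 50 and in edgeR (Ugt2b34 lost each time) and 10 in DESeq2 (Ugt2a3 gained, adjusted p = 0.0405). Leaving out 1 library each gave 953 to 1825 genes lowered, 970 to 1782 raised, 7 to 10 members lowered, 4 to 14 pathway and regulator genes lowered and 3 to 6 raised. The lowest of these counts came without wild type replicate 1 (953 genes lowered, 970 raised, 4 pathway and regulator genes lowered) and replicate 2 (963, 997 and 6); the cause was not tested. The change of Nr3c1 ranged over -2.82 to -1.57, and its call ended without any library other than wild type replicate 3. The Ugt2b sum was 1.77 to 2.87 times lower in knockout, and the Ugt1a sum 3.64 to 4.82 times. TMM scaling moved the median of all genes to -0.009, against 0.010, and changed no member's call. No paired analysis was possible because the replicate numbers follow accession order and pair no samples. Depth limits Ugt2b37 most, with 2 knockout reads.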
